A study of Homo sapiens with 30 samples.

Results

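Nascent transcription was compared between A549 cells kept for 7 days in GSK591 and A549 cells kept for 7 days in MS023, with no glucocorticoid. The comparison takes 4 of the 30 libraries of the study, 2 replicates with each inhibitor, chosen by their labels. It covers all genes, of which 22919 of the 58780 in the count table passed a filter on low counts and were tested. A549 is an established human lung adenocarcinoma line. GSK591, at 1 µM, inhibits PRMT5, and MS023, at 1 µM, inhibits the Type I arginine methyltransferases. Both were in 0.01% DMSO, which the labels also give for the untreated cells, so all groups used here share that vehicle. The title of the untreated libraries carries 15 min, and nothing in the labels says whether those cells were kept for 7 days, so their levels are given for reference only. The other libraries drawn on are GSK591 or MS023 for 2 days, for 4 days, and for 7 days followed by dexamethasone (Dex, a synthetic glucocorticoid, 100 nM) for 15 min or 3 h, with 2 libraries in each group. Nothing in the labels says whether the replicates came from separate cultures, so p-values measure only the spread between these samples.

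Arginine methyltransferases transfer methyl groups to arginines of histones, RNA-binding proteins and other targets. PRMT5 makes symmetric dimethylarginine and is known for methylating the Sm proteins of the splicing machinery, while Type I enzymes, led by PRMT1, make asymmetric dimethylarginine on many of the same kinds of proteins. Precision run-on sequencing (PRO-seq) lets engaged RNA polymerases add labelled nucleotides in permeabilised cells, so the reads report ongoing transcription and not the stock of mRNA. In bulk libraries, fewer cells transcribing a gene and less transcription per cell cannot be told apart.

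Total counts ran from 8441211 to 13069598 over the 30 libraries. The libraries compared stood apart in how much of that total fell on the mitochondrial genome, 73.7% and 78.7% with GSK591 and 58.7% and 59.6% with MS023. Nuclear genes therefore had 2227671 and 1914570 counts with GSK591 and 3422257 and 3316181 with MS023. Values below are CPM, counts relative to library size after TMM scaling, which rests on a trimmed mean of gene ratios, and a positive log2 fold change means a higher value with GSK591. Pearson's r of log2 CPM between replicates, across 11117 genes, was 0.973 with GSK591 and 0.981 with MS023, and genes are not independent replicates. By chi-square per degree of freedom over these genes, the GSK591 replicates stood further apart, at 71.6 against 8.66 with MS023. That was the highest value of the 15 groups, and larger values mean a wider spread than counting alone gives. The sum includes the mitochondrial genes, which held most counts. Some of them differed between the GSK591 replicates, such as ND5 at 79563 and 182622 CPM, and others less, such as MT-RNR2 at 289627 and 294558 CPM. How much of the value rests on mitochondrial genes was not counted. Epithelial markers were present in every library, with KRT8 at 188 and 183 CPM with GSK591 and 189 and 181 CPM with MS023. KRT8 was alike in both, but of the 6 epithelial markers 3 were called higher and 1 lower with GSK591. Of all genes 4.91% were higher and 4.47% lower. Of 15 fibroblast, leukocyte and endothelial markers, 6 passed the filter and 0 of these were called. CDKN2A, which lies in the 9p21 region lost in this line, had 0 and 0 counts with GSK591 and 0 and 2 with MS023. Over MTAP, CDKN2A and CDKN2B, however, counts summed to 102 and 69 with GSK591 and 207 and 184 with MS023. Of these 3 genes 1 passed the filter and was not called, so reads on them were not absent.

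Of the 22919 genes, 2149 differed between the inhibitors (9.38%; edgeR, quasi-likelihood fit, with p-values adjusted by Benjamini and Hochberg's method and a threshold of 0.05). With GSK591, 1125 were higher (4.91% of genes tested) and 1024 lower (4.47%). These shares are the background for every count of list members at 7 days below. The median fold of the called genes was 1.78, and 827 of them, 479 higher and 348 lower, passed 2-fold. In 2147 of the 2149 the libraries of one inhibitor did not overlap those of the other. A call with 2 libraries per group makes this likely, so it adds little to the call. By gene type, 10.8% of the 14978 protein-coding genes tested, 9.13% of 1698 lincRNA genes and 3.65% of 1591 processed pseudogenes were called. The plot of fold change against mean level shows that the largest named groups sat on one side each, with histone genes lower and mitochondrial genes higher with GSK591. The count rests on replication. Leaving out 1 library at a time gave 1026 to 1192 genes, and DESeq2 gave 1097.

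**Figure D1:**
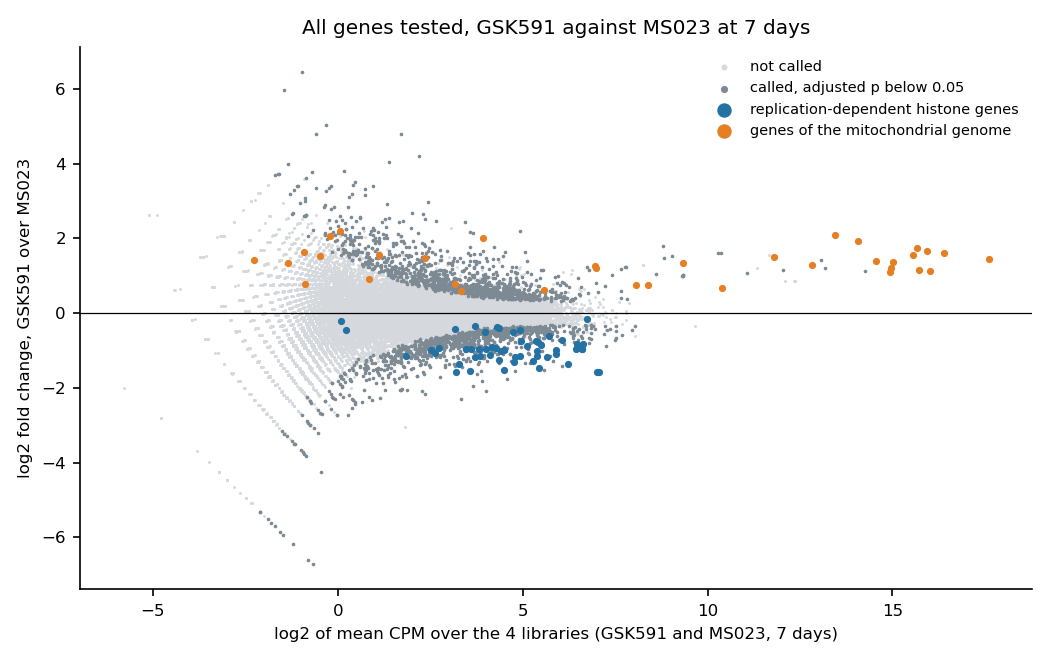
Each point is 1 of the 22919 genes tested, by log2 of its mean CPM over the 4 libraries (x axis) and its log2 fold change, GSK591 over MS023 (y axis), with the 2149 called genes in dark grey. The 56 replication-dependent histone genes (blue) lie below 0. The 35 mitochondrial genes (orange) lie above 0, with the ribosomal RNA and protein-coding ones at the far right and transfer RNA genes spread over lower levels.

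The protein-coding genes with the largest rises relative to MS023, among those with a mean of at least 5 CPM, were PSG4, XDH, STC1, FOXQ1, CPM, ABCA1, FBN2 and PDLIM7, together with mitochondrial ND4L and ND6. PSG4 (ENSG00000243137.7, chromosome 19, 43192702 to 43207299, minus strand) encodes a pregnancy-specific glycoprotein of the immunoglobulin superfamily. It stood at 10.3 and 8.84 CPM with GSK591, 1.27 and 1.16 CPM with MS023 and 3.34 and 2.62 CPM in untreated cells (log2 fold change 2.97, SE 0.326, adjusted p = 2.64e-09). The GSK591 libraries were thus above, and the MS023 libraries below, both untreated ones. PSG genes resemble one another, and 23.3% of the 40-base stretches of the PSG4 transcripts occur in other genes, so how its reads were divided is uncertain. XDH, the xanthine dehydrogenase of purine breakdown, stood at 9.65 and 7.91 CPM with GSK591 and 1.77 and 1.30 CPM in the MS023 libraries (log2 fold change 2.51). FOXQ1, a forkhead transcription factor, was at 15.1 and 21.6 CPM against 3.47 and 3.26 CPM (log2 fold change 2.44, SE 0.203, adjusted p = 1.20e-12). STC1, a secreted glycoprotein hormone, was at 11.2 and 10.3 CPM against 1.91 and 1.95 CPM (log2 fold change 2.47). In untreated cells XDH was at 2.56 and 5.34, FOXQ1 at 7.34 and 6.15 and STC1 at 3.89 and 4.23 CPM, between the inhibitors in each case.

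ABCA1, the exporter that loads cholesterol onto lipoproteins, was at 17.6 and 21.6 CPM with GSK591, 4.25 and 4.42 with MS023 and 5.23 and 3.93 in untreated cells (log2 fold change 2.17, SE 0.238, adjusted p = 2.18e-08). Only the GSK591 libraries stood away from the untreated level for ABCA1. FBN2 encodes fibrillin 2 of extracellular microfibrils and had 23.2 and 18.1 CPM against 4.39 and 4.99 CPM, with 8.90 and 7.36 in untreated cells (log2 fold change 2.14, SE 0.18, adjusted p = 1.33e-12). PDLIM7 encodes a PDZ and LIM domain protein of the actin cytoskeleton. It had 22.6 and 26.1 CPM with GSK591, 5.17 and 6.80 with MS023 and 16.9 and 15.9 in untreated cells (log2 fold change 2.02, SE 0.169, adjusted p = 1.20e-12), so the untreated level lay nearer to that with GSK591. The gene CPM, for the membrane enzyme carboxypeptidase M, was at 45.8 and 54.3 CPM against 11.3 and 10.6 CPM (log2 fold change 2.19). It overlaps MDM2 by 8490 bases on the opposite strand, and MDM2 was higher with GSK591 too, so the source of its reads is uncertain. Among other gene types, AC145098.2, which lies 3737 bases from PDLIM7 on the same strand, had a log2 fold change of 1.92.

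Falls were ranked within the same limits, among called protein-coding genes without overlap and with a mean of at least 5 CPM. The largest relative to MS023 were those of MIR9-1HG, KRT4, GREM1, LILRB3, INHBB, BMF, AURKB, H3C15, H3C14 and H2BC3. MIR9-1HG (ENSG00000125462.16), the host gene of a copy of the microRNA miR-9, stood at 4.18 and 2.55 CPM with GSK591 and 16.5 and 17.2 CPM in the MS023 libraries (log2 fold change -2.30, SE 0.223, adjusted p = 8.33e-11). Untreated cells lay between, at 9.34 and 10.2 CPM. GREM1, a secreted antagonist of bone morphogenetic proteins, had 6.16 and 6.30 CPM against 29.7 and 22.7 CPM, and 11.8 and 11.4 CPM untreated (log2 fold change -2.07, SE 0.194, adjusted p = 3.64e-11). Its antisense gene GREM1-AS1 overlaps it by 1034 bases and fell alike (log2 fold change -1.77), and reads of the pair cannot be told apart without strand. INHBB, the beta B subunit of inhibins and activins, was at 6.86 and 6.16 CPM with GSK591 and 7.67 and 7.15 CPM untreated, against 22.0 and 24.2 CPM in the MS023 libraries (log2 fold change -1.82, SE 0.16, adjusted p = 4.87e-12). For INHBB only the MS023 libraries stood away from the untreated ones. KRT4, an epithelial keratin, was at 1.74 and 2.01 CPM against 8.71 and 8.03 CPM, and BMF, a pro-apoptotic member of the BCL2 family, at 2.79 and 3.62 CPM against 8.57 and 12.3 CPM. The LILRB3 entry joins several near-identical leukocyte receptor genes in the table, shares 32.9% of its 40-base stretches with others and is uncertain (log2 fold change -1.94).

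**Figure D2:**
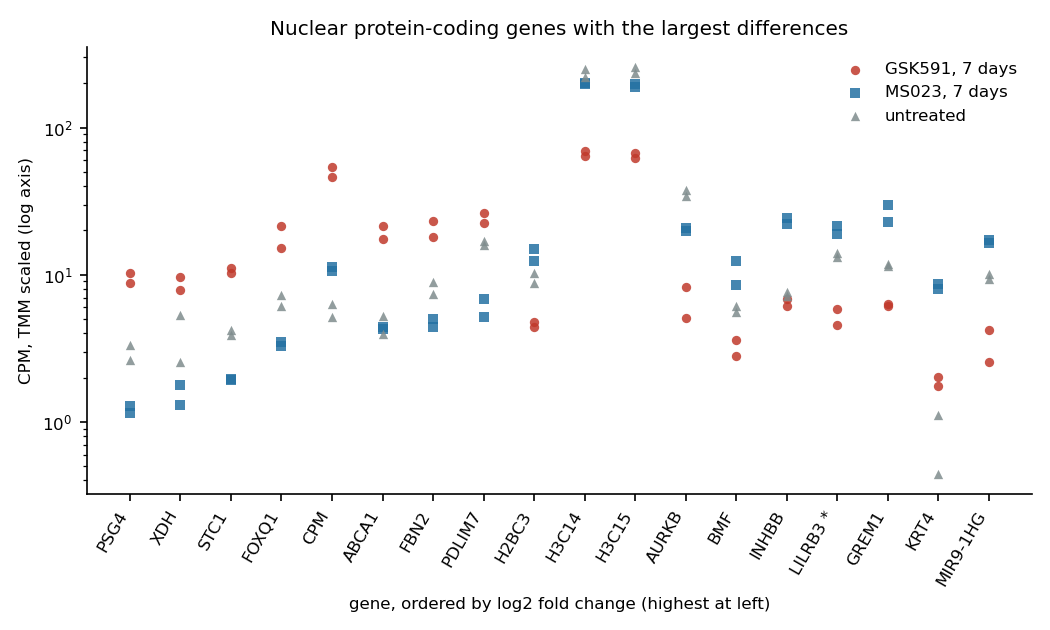
CPM on a log axis in each library of GSK591 at 7 days (red circles), MS023 at 7 days (blue squares) and untreated cells (grey triangles) for the nuclear protein-coding genes with the largest differences, highest log2 fold change at the left; the star marks an entry that joins several genes. The genes were chosen for having no overlap between red and blue. The untreated level lies at the red points for INHBB, at the blue points for ABCA1, and between them for PSG4.

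The replication-dependent histone genes stood lower with GSK591 than with MS023. These intronless genes supply histones during S phase and end in a stem-loop in place of a poly(A) tail. The count matrix holds 71, of which 56 were tested and 48 were lower and 0 higher with GSK591, beside 4.47% of all genes lower. Their median log2 fold change was -0.96, against -0.03 over all genes, and all 56 values were below 0. In 54 of the 56 the libraries of the inhibitors did not overlap. No such share over all genes was counted, and with 2 libraries per inhibitor non-overlap is common. It held for 18 of 28 ribosome biogenesis genes and 17 of 39 interferon-stimulated genes, groups with 0 and 2 calls. All 4 linker H1 genes (median -1.21), all 12 H2A genes (-0.99), 13 of 15 H2B genes (-0.99), 10 of 12 H3 genes (-0.98) and 9 of 13 H4 genes (-0.77) fell. Leaving out 1 library at a time gave 41 to 44 lower, and DESeq2 gave 46.

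H3C14 (ENSG00000203811.1) and H3C15 (ENSG00000203852.3), which encode histone H3 on chromosome 1, had the largest falls of the histone genes tested. H3C14 stood at 64.2 and 69.5 CPM with GSK591, 198 and 199.98 CPM with MS023 and 222 and 251 CPM in untreated cells (log2 fold change -1.57, SE 0.111, adjusted p = 5.65e-15). H3C15 stood at 62.3 and 67.5, 190.2 and 199 and 235 and 257 CPM in the same order (log2 fold change -1.58, SE 0.112, adjusted p = 5.65e-15). Both GSK591 libraries were below every other library shown for these genes, and the MS023 libraries lay under the untreated ones. All 40-base stretches of each transcript occur in the other, so the pair counts as 1 measurement. Other classes followed. Of the linker histones, H1-3 stood at 22.4 and 23.5 CPM against 63.0 and 64.1 CPM, with 77.6 and 93.9 CPM untreated (log2 fold change -1.47, SE 0.18, adjusted p = 5.42e-06). Of the H2B genes, H2BC21 stood at 44.1 and 41.0 CPM against 102 and 115 CPM (log2 fold change -1.35, SE 0.137, adjusted p = 7.46e-09). H2BC11 stood at 6.63 and 5.36 CPM against 15.5 and 20.0 CPM (log2 fold change -1.56, SE 0.239, adjusted p = 5.82e-05). For these genes, too, each GSK591 library was below both MS023 libraries. HIST1H3B, another H3 gene, stood at 23.5 and 22.2 CPM against 54.3 and 55.9 CPM, with 65.6 and 65.4 CPM untreated (log2 fold change -1.27, SE 0.116, adjusted p = 1.52e-11). At the other end, H4C16 was not called, at 102 and 101 CPM against 116 and 109.9 CPM (log2 fold change -0.16, adjusted p = 0.449). The remaining genes not called were H4C3, H4C11, H4C12, H3C6, H3-4, H2BC7 and H2BC10, with log2 fold changes from -0.50 to -0.20.

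**Figure D3:**
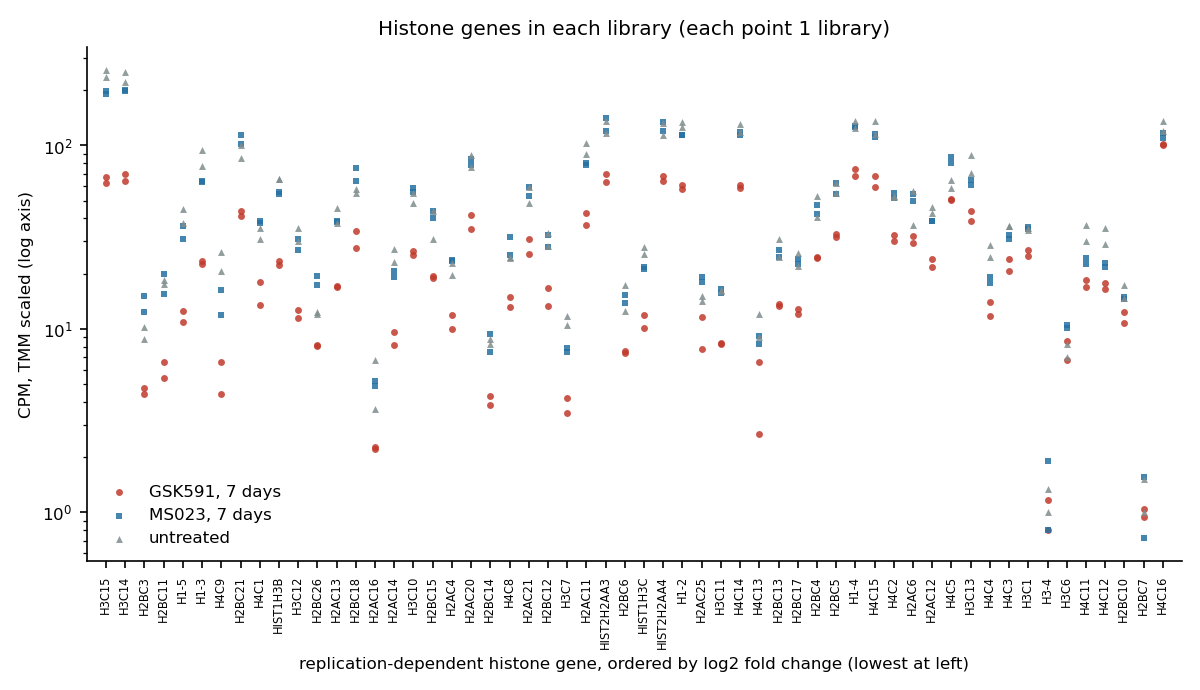
CPM on a log axis of the 56 replication-dependent histone genes tested, each point 1 library of GSK591 at 7 days (red circles), MS023 at 7 days (blue squares) or untreated cells (grey triangles), ordered by log2 fold change with the lowest at the left. The red points lie below the blue ones in 54 of the 56 genes, and no such share over all genes was counted.

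The promoters of these genes share short motifs that recruit general activators, among them the CCAAT box. RefSeq windows (GRCh38.p14) from 250 bases before to 50 after the start were found for 51 of the 56 genes, and 42 of them (82.4%) held the letters CCAAT on either strand. Each gene counted once, by a match in the window of any of its listed starts. By that measure the letters were found for 39.7% of all 27305 RefSeq genes with a window and 41.7% of those tested. They were found for 49.1% of the genes lower with GSK591 and 39.8% of the genes higher, among those with a window. The windows of H3C14, of H2BC11 and of H2BC21 follow, 5′ to 3′, since these genes had large falls and lie on chromosomes 1 and 6. Each line gives the gene, position and strand. Capitals mark CCAAT or its reverse complement.
H3C14 chr1:149841159-149841458 -: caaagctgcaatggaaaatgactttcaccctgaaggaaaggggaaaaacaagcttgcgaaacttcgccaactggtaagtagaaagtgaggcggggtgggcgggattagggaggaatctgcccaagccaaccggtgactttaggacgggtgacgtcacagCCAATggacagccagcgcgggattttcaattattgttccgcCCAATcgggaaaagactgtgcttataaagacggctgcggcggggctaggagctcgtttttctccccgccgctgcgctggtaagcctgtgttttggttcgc
H2BC11 chr6:27132746-27133045 -: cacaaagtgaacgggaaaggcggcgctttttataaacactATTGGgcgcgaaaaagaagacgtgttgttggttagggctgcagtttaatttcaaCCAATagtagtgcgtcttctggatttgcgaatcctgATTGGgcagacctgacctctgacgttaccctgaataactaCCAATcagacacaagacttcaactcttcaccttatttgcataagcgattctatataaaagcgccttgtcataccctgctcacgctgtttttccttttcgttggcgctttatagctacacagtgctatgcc
H2BC21 chr1:149886633-149886932 -: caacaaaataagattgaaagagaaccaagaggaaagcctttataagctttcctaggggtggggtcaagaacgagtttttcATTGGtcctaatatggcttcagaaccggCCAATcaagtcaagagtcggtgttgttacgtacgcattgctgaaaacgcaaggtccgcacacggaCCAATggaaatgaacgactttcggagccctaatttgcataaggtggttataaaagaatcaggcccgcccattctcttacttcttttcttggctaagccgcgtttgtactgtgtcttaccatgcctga
H3C14 has 2 CCAAT boxes, H2BC11 4 and H2BC21 3. The H3C15 window repeats 296 of its 300 bases from that of H3C14. A match describes letters only and says nothing of which factors were bound.

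Position and sequence similarity were examined next. On chromosome 6, in the run from 26020490 to 26285638, 18 of 22 histone genes were lower, and in the run from 27125897 to 27893843, 17 of 19. Other genes there also had values below 0. Of the 29 tested between the outer ends of these runs, 6 were lower and 0 higher (median -0.37). The 13 protein-coding ones among them had a median of -0.24, and edgeR called 0, so the 6 lower genes were of other types. Any histone pseudogenes were counted among these other genes and were not set apart. Inside the runs the coding ones had medians of -0.87 (2 genes in the first) and -0.78 (3 genes in the second), beside histone medians of -0.87 and -1.05, so at this number of genes neighbours and histone genes cannot be told apart by their medians. Where at most 10% of the 40-base stretches of a gene occur elsewhere, 29 of 34 histone genes were lower with a median of -0.96, and where more do, 19 of 22 with a median of -0.96. Of 12 histone variants that are made outside S phase, most of them polyadenylated, 2 were lower (16.7%, beside 4.47% of all genes), among them H2AZ1 (log2 fold change -0.76). Their median was -0.26, and 10 of the 12 were below 0. The calls fell to 0 or 1 when 1 library was left out and to 0 under DESeq2. H3-3B, which encodes the replacement histone H3.3, was at 206 and 239 CPM against 214 and 229.9 CPM (log2 fold change 0.00, adjusted p = 0.998). Factors for histone transcription and 3′ end formation had a median of 0.03 over 12 genes, of which CSTF2 alone was called (log2 fold change -1.28). Among them NPAT, the coactivator of histone genes, was at 1.74 and 1.07 CPM against 1.98 and 1.95 CPM and SLBP, the stem-loop binding protein, at 15.7 and 13.8 against 15.2 and 16.8 CPM.

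As a share of all nuclear counts, histone genes took 0.556% and 0.569% with GSK591 at 7 days and 1.15% and 1.22% with MS023. Untreated cells had 1.01% and 1.17%. The plot of this share shows how the same inhibitors compared at other times. At 2 days the share was 0.837% and 0.967% with GSK591 and 1.29% and 1.51% with MS023, and at 4 days 0.549% and 0.553% against 1.36% and 1.56%. The pairs of groups did not overlap at any of these times. The median log2 fold change of the 56 genes was -0.58 at 2 days (36 lower), -1.29 at 4 days (53 lower), -1.10 with Dex for 15 min after the 7 days (49 lower) and -1.03 with Dex for 3 h (50 lower). In those comparisons 1.58%, 3.52%, 8.06% and 5.05% of all genes were lower.

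**Figure D4:**
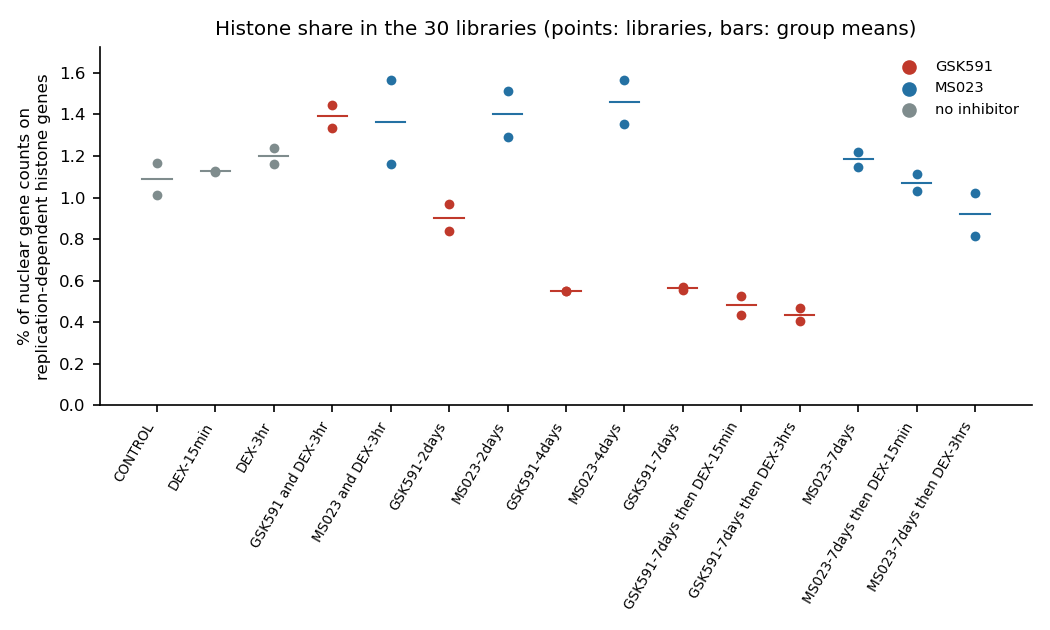
Percent of nuclear gene counts on the replication-dependent histone genes (y axis) in each of the 30 libraries, by group (x axis), with GSK591 in red, MS023 in blue, no inhibitor in grey and bars at the group means. The GSK591 libraries at 4 and 7 days, Dex included, lie between 0.405% and 0.569%, and the MS023 ones at the same times between 0.817% and 1.56%.

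Of 42 genes of DNA replication and the G1/S transition, 14 were lower and 0 higher (median -0.47), and 7 to 11 were lower when 1 library was left out. RRM2, a subunit of ribonucleotide reductase, which makes deoxynucleotides, stood at 15.0 and 17.8 CPM against 31.7 and 30.2 CPM, with 52.7 and 56.6 CPM untreated (log2 fold change -0.92, SE 0.125, adjusted p = 4.29e-07). POLE, the catalytic subunit of DNA polymerase epsilon, stood at 10.5 and 10.9 CPM against 18.1 and 22.1 CPM, with 37.6 and 36.6 CPM untreated (log2 fold change -0.92, SE 0.148, adjusted p = 1.34e-05). For both genes the GSK591 libraries were lowest, the MS023 libraries next and the untreated ones highest. E2F2, a transcription factor of the G1/S program, was at 2.56 and 3.62 CPM against 7.58 and 8.32 CPM (log2 fold change -1.37, SE 0.233, adjusted p = 3.19e-05). E2F8 (-1.68), E2F1 (-0.87), the helicase subunits MCM2 (-0.98), MCM5 (-0.84), MCM7 (-0.52) and MCM4 (-0.47) and the loading factor CDC6 (-0.65) were also called on the log2 scale. E2F factors bind letters of the kind TTTGGCGC or TTTCCCGC. Of the 35 genes of the list with a window, 17 (48.6%) had one on either strand in the window of any listed start. The share was 2.75% of all RefSeq genes with a window and 4.09% of those tested. It was 7.59% of 672 genes lower with GSK591 and 2.74% of 694 genes higher. The first listed window of RRM2 holds 0, though a gene may count through another start. The window of E2F2 is shown as an example of a called gene with 1 match, in capitals.
E2F2 chr1:23531184-23531483 -: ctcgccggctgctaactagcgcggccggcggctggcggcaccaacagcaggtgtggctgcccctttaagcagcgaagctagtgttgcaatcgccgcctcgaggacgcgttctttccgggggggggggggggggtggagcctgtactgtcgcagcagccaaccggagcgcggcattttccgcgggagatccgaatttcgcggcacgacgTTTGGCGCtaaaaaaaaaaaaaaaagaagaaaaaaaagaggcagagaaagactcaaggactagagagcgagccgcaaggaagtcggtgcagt

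Of 48 genes of mitosis and G2/M, 14 were lower and 1 higher (median -0.58), and 7 to 10 were lower when 1 library was left out. AURKB, the mitotic kinase of the chromosomal passenger complex (chromosome 17, minus strand), had the smallest p of them. It stood at 5.11 and 8.31 CPM with GSK591, 19.8 and 20.9 CPM with MS023 and 34.0 and 37.8 CPM untreated (log2 fold change -1.62, SE 0.156, adjusted p = 8.22e-11). The 3 groups did not overlap. ESPL1, the separase that cleaves cohesin, was at 6.74 and 7.64 CPM against 12.5 and 15.6 CPM (log2 fold change -0.97, SE 0.161, adjusted p = 2.37e-05). CCNB1, cyclin B1, was at 4.07 and 4.69 CPM against 10.3 and 8.61 CPM (log2 fold change -1.11, SE 0.229, adjusted p = 5.96e-04). CKAP2L, a spindle protein, had a log2 fold change of -1.75, NEK2 one of -2.04 and CDK1 one of -1.43, each at under 6 CPM in these 4 libraries.

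The exception in the deposited counts was CCNB2, cyclin B2, which stood at 23.4 and 27.3 CPM with GSK591, 13.1 and 13.1 CPM with MS023 and 26.9 and 28.0 CPM untreated (log2 fold change 0.95, SE 0.149, adjusted p = 7.43e-06). Here the MS023 libraries were the low ones and the GSK591 libraries overlapped the untreated range. It was higher with GSK591 in the libraries at 2 days (1.24), 4 days (1.08), Dex 15 min (1.10) and Dex 3 h (1.11) as well, on the log2 scale, where 1.11%, 2.51%, 7.56% and 6.08% of all genes were higher. The authors' deposited table gives CCNB2 lower than untreated with both inhibitors at 7 days, log2 fold change -1.59 with GSK591 and -0.49 with MS023. That order is the opposite of the one in the deposited counts, so the direction for CCNB2 is uncertain. Scaling the counts by library totals gave -0.11 for CCNB2, where the median of all genes was -1.07. The cause was not tested. Mitotic genes often carry a CHR element, TTTGAA or TTCGAA. Of the 41 genes of the list with a window, 32 (78.0%) had one on either strand in the window of any listed start. The share was 19.5% of all RefSeq genes with a window and 15.6% of those tested. The first listed windows of AURKB and CCNB1, which were lower with GSK591, hold 0, though a gene may count through another start. The first listed window of CCNB2, the only called member that was higher, has 1, in capitals.
CCNB2 chr15:59104896-59105195 +: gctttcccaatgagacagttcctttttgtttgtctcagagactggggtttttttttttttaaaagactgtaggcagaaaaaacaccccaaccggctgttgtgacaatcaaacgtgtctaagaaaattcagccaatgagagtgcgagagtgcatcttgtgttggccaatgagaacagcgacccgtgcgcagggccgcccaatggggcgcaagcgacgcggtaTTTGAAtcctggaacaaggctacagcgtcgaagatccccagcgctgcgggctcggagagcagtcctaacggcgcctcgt

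Homologous recombination and Fanconi anaemia genes, which repair breaks and crosslinks in S phase, followed the same direction. Of 28 tested, 10 were lower and 0 higher (median -0.62), with 2 to 6 lower when 1 library was left out. XRCC2, a recombination factor, stood at 2.44 and 2.68 CPM against 5.45 and 7.96 CPM, with 9.12 and 9.07 CPM untreated (log2 fold change -1.39, SE 0.285, adjusted p = 5.73e-04). FANCD2 stood at 3.02 and 2.28 CPM against 5.67 and 6.66 CPM, and 11.9 and 9.47 CPM untreated (log2 fold change -1.20, SE 0.274, adjusted p = 0.0021). BRCA1 stood at 6.16 and 6.57 CPM against 11.9 and 14.9 CPM, and 19.7 and 17.9 CPM untreated (log2 fold change -1.07, SE 0.243, adjusted p = 0.00405). For all of these the order was GSK591 lowest, MS023 next and untreated cells highest, with no overlap. The call of FANCD2 was lost without replicate 2 of GSK591 (adjusted p = 0.0700).

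Genes of the small nuclear RNAs, the RNA core of the spliceosome, were examined because several were among the called genes, so this group was chosen after its values were seen. Of 62 tested, 12 were lower (19.4%, beside 4.47% of all genes) and 0 higher, 56 values were below 0, and the median was -0.59. The calls rest on all libraries being kept. They fell to 1 without replicate 2 of GSK591 and to 3 under DESeq2. The copies of U2 snRNA on chromosome 17, between 43233787 and 43300231, summed to 127 and 114 CPM with GSK591, 184 and 161 CPM with MS023 and 288 and 292 CPM in untreated cells, and 6 of 13 were lower. The 27 U1 genes summed to 100.2 and 93.7 CPM with GSK591, 143 and 145 CPM with MS023 and 163 and 170.2 CPM in untreated cells, and 5 were lower. RNU1-1, a U1 gene on chromosome 1, was at 15.3 and 12.9 CPM against 20.6 and 20.2 CPM (log2 fold change -0.53, adjusted p = 0.019). Copies of a family are nearly identical, so how reads were divided among them is uncertain. The sums do not depend on the division among the copies summed. They do leave out copies that were not tested and any reads that the counting dropped. At 2 and 4 days the same 62 genes had medians of 0.03 and 0.04, with 1 and 0 lower by edgeR (1 at 4 days at an unadjusted p below 0.05). With Dex for 15 min and 3 h after the 7 days the medians were -0.53 and -0.42, with 15 and 11 lower. In these 4 comparisons 1.58%, 3.52%, 8.06% and 5.05% of all genes were lower. For 3 of the 62 the difference itself became more negative from 2 to 7 days in its own test, beside 0.31% of all genes. From 4 to 7 days edgeR called 0 and 18 had an unadjusted p below 0.05.

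All 35 mitochondrial genes tested had higher values with GSK591, and 20 were called (median 1.36). Polymerase POLRMT transcribes this genome from a few promoters, so its genes are not independent of each other, and the group was chosen after its values were seen. Of 13 protein-coding genes 12 were higher, with ATP8 not called (log2 fold change 1.49, adjusted p = 0.063). MT-RNR1, a ribosomal RNA, stood at 86308 and 72302 CPM with GSK591, 25309 and 22312 with MS023 and 98559 and 73120 in untreated cells (log2 fold change 1.74, SE 0.276, adjusted p = 9.69e-06). The MS023 libraries were the low ones. ND4L, a subunit of respiratory complex I, stood at 8278 and 27620 CPM with GSK591, 4277 and 4222 with MS023 and 13277 and 10227 untreated (log2 fold change 2.08, SE 0.445, adjusted p = 0.00658). For ND4L replicate 2 of GSK591 stood far above replicate 1, and replicate 1 lay below both untreated libraries. ND5 stood at 79563 and 182622 CPM against 40004 and 45675 CPM with the same split between the replicates. The calls of ND4L and ND6 were lost without replicate 2 of GSK591 (adjusted p = 0.119 and 0.333) and without either MS023 library. Without replicate 2 of GSK591 the median of the 13 coding genes was 0.85 and 4 were called. Scaled by total counts it was 0.28 with 5 called, where the median of all genes was -1.07. The nuclear copy MTND6P4 had 386 and 985 CPM against 196 and 196 CPM, and 23.8% of its 40-base stretches occur in other genes, ND6 first.

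The p53 targets held 6 genes that were higher and 1 lower of 26 tested (median 0.19), and 3 to 6 were higher when 1 library was left out. CDKN1A, the cyclin-dependent kinase inhibitor p21, stood at 32.9 and 24.0 CPM with GSK591, 19.3 and 14.2 with MS023 and 10.3 and 11.1 in untreated cells (log2 fold change 0.77, SE 0.139, adjusted p = 8.89e-05). MDM2, the ubiquitin ligase that limits p53, stood at 112 and 147, 91.4 and 88.3 and 43.5 and 42.3 CPM in that order (log2 fold change 0.53, SE 0.107, adjusted p = 4.60e-04). PHLDA3, an inhibitor of AKT, stood at 65.3 and 73.2, 45.7 and 48.6 and 26.7 and 32.1 CPM (log2 fold change 0.55, SE 0.122, adjusted p = 0.00137). All 3 were above untreated cells with either inhibitor and further above with GSK591. BTG2, PLK3 and FDXR were the other rises, with log2 fold changes of 0.61, 0.58 and 0.39. GDF15, a secreted stress cytokine, went the other way, at 87.0 and 93.3 CPM against 123 and 121 CPM and 45.5 and 52.5 CPM untreated (log2 fold change -0.43, SE 0.112, adjusted p = 0.00731). Without 1 library the calls of CDKN1A (adjusted p = 0.0733 without replicate 1 of GSK591), MDM2 (0.142 without replicate 2 of GSK591), PHLDA3 (0.0575 without the same library) and GDF15 (0.119 without replicate 1 of GSK591 and 0.0778 without replicate 1 of MS023) were lost.

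Targets of NRF2, the transcription factor of the oxidative stress response, were lower in 7 of 27 genes and higher in 0 (median -0.37). Leaving out 1 library gave 4 to 6 lower, with 4 without replicate 1 of MS023, and scaling by nuclear totals or fitting the compared groups alone gave 14. OSGIN1 stood at 34.1 and 33.2 CPM with GSK591, 72.6 and 75.6 with MS023 and 61.6 and 56.5 in untreated cells (log2 fold change -1.14, SE 0.108, adjusted p = 5.21e-11). Of its 40-base stretches 12.7% occur in other genes, nearly all of them in an overlapping one. NR0B1, an orphan nuclear receptor, stood at 31.7 and 34.8, 81.7 and 80.0 and 31.8 and 36.2 CPM (log2 fold change -1.28, SE 0.128, adjusted p = 2.19e-10). GPX2, a glutathione peroxidase, stood at 9.42 and 9.92, 23.6 and 19.5 and 10.0 and 13.7 CPM (log2 fold change -1.16, SE 0.163, adjusted p = 8.80e-07). NR0B1 and GPX2 were high with MS023 and near the untreated level with GSK591, whereas OSGIN1 was low with GSK591. GCLC (-0.79), UGDH (-0.51), FTL (-0.43) and PGD (-0.38) were the other falls on the log2 scale. NQO1 was not called, at 19.5 and 22.9 CPM against 33.0 and 39.7 CPM (adjusted p = 0.124).

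The integrated stress response held NUPR1, a small stress-induced chromatin protein, which stood at 11.2 and 17.2 CPM with GSK591, 38.6 and 44.2 CPM with MS023 and 4.89 and 5.74 CPM in untreated cells (log2 fold change -1.56, SE 0.159, adjusted p = 7.15e-10). The libraries of both inhibitors lay above the untreated ones, those of MS023 highest. In this list 12% of the genes were called, near the 9.38% of all genes. Of the 25 genes of that list only SLC3A2 (-0.65) was also lower and only VLDLR (0.59, adjusted p = 0.0436) higher, and VLDLR was lost under 7 alternatives. ASNS stood at 4.88 and 5.09 CPM against 8.50 and 6.73 CPM and DDIT3 at 3.60 and 2.95 CPM against 3.19 and 3.69 CPM, neither of them called.

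Genes of TGF-beta signalling, extracellular matrix and the epithelial-mesenchymal program were higher in 8 of 27 and lower in 0 (median 0.41), with 2 to 7 higher when 1 library was left out. COL5A1, a fibrillar collagen chain, stood at 30.8 and 30.4 CPM with GSK591, 13.0 and 12.4 with MS023 and 27.0 and 22.6 untreated (log2 fold change 1.26, SE 0.139, adjusted p = 2.70e-09). The MS023 libraries were the ones below the untreated level. CCN1, a matricellular protein, stood at 51.1 and 49.98, 33.8 and 32.4 and 24.5 and 26.4 CPM in that order (log2 fold change 0.61, SE 0.113, adjusted p = 1.20e-04). TAGLN, transgelin of smooth-muscle actin bundles, stood at 10.9 and 10.6, 7.01 and 5.21 and 5.78 and 5.34 CPM (log2 fold change 0.81, SE 0.21, adjusted p = 0.00722). The call of TAGLN was lost without replicate 1 of GSK591 (adjusted p = 0.0823) and without replicate 2 of MS023 (0.165). TGFBI, COL4A1 and CDH1 were among the other rises. CDH1 encodes E-cadherin, which is a gene of the epithelial state and not of the mesenchymal one, and stood at 4.30 and 4.56 CPM against 2.20 and 2.10 CPM (log2 fold change 1.04). Of the other epithelial markers, KRT7 stood at 187 and 189.6 CPM against 111 and 114 CPM and was higher, KRT19 was higher (0.71), EPCAM lower (-1.46), and KRT8 and KRT18 were not called (0.00 and -0.11). Vimentin, VIM, stood at 41.0 and 49.4 CPM against 42.5 and 37.6 CPM and was not called.

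Of 17 NF-kB and inflammatory cytokine genes tested, 6 were higher and 1 lower (median 0.28), and 1 to 2 were higher when 1 library was left out, and 2 under DESeq2. CXCL1, a neutrophil-attracting chemokine, stood at 22.7 and 25.2 CPM with GSK591, 10.1 and 8.18 with MS023 and 4.89 and 6.15 in untreated cells (log2 fold change 1.38, SE 0.171, adjusted p = 4.50e-08). CCL2, a monocyte-attracting chemokine, had the opposite sign at 5.93 and 6.57, 16.6 and 12.4 and 6.01 and 6.55 CPM (log2 fold change -1.22, SE 0.206, adjusted p = 3.12e-05). CXCL1 was thus highest with GSK591, and CCL2 was high with MS023 alone. CXCL2 (0.44), CXCL5 (0.48), RELB (0.70), NFKBIZ (0.40) and IL1B, at 1.39 and 1.88 CPM against 0.283 and 0.434 CPM, were the other rises. In the acute-phase list 11 of 18 genes were tested, with 1 higher and 1 lower. C3, the central complement component, stood at 7.90 and 7.77 CPM with GSK591, 2.12 and 2.17 with MS023 and 1.11 and 1.41 untreated (log2 fold change 1.86, SE 0.277, adjusted p = 2.60e-06). FGA, the fibrinogen alpha chain, stood at 5.11 and 8.04, 14.1 and 17.1 and 2.45 and 2.42 CPM (log2 fold change -1.26, SE 0.175, adjusted p = 7.06e-07). Again the pair had opposite signs, with C3 highest with GSK591 and FGA highest with MS023.

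The drug targets came next. PRMT5, the target of GSK591, stood at 7.56 and 8.98 CPM with GSK591 and 7.79 and 7.96 CPM in the MS023 libraries (log2 fold change 0.07, SE 0.192, adjusted p = 0.897). PRMT1, the main target of MS023, stood at 37.8 and 41.3 CPM against 45.8 and 43.4 CPM and 56.2 and 55.8 CPM untreated (log2 fold change -0.18, SE 0.11, adjusted p = 0.369). SNRPB, which encodes an Sm protein that PRMT5 methylates, stood at 11.2 and 14.9 CPM against 12.5 and 13.0 CPM (log2 fold change 0.03, SE 0.159, adjusted p = 0.952). For PRMT5 and SNRPB the libraries overlapped, and a p above the threshold does not show that levels were equal. Of 7 arginine methyltransferase genes tested 0 were called by edgeR or DESeq2, and 0 had an unadjusted p below 0.05 in edgeR. Of 25 genes for PRMT5 partners, Sm proteins and snRNP assembly, SNRPA of the U1 particle alone was lower (4.00% called, beside 9.38% of all genes), at 21.4 and 17.2 CPM against 30.9 and 32.5 CPM (log2 fold change -0.71). Of 23 SR protein and kinase genes, TRA2B (-0.61) and SRSF7 (-0.36) were lower and the kinase CLK3 (0.39) higher, which makes 13.0% called. Of 29 hnRNP and related genes, HNRNPA0 (-0.37) and HNRNPL (-0.31) were lower (6.90% called). Each of these hnRNP calls, and that of CLK3, was lost when any 1 library was left out. That of SNRPA was lost without replicate 2 of GSK591 (adjusted p = 0.0559). That of SRSF7 was lost without replicate 1 of GSK591 (0.255), replicate 2 of GSK591 (0.0584) or replicate 1 of MS023 (0.269), and under DESeq2 (0.0679). Ribosome biogenesis (28 genes) and MHC class I presentation (14 genes) had 0 calls by edgeR or DESeq2, medians of -0.09 and -0.12, and 4 and 1 genes at an unadjusted p below 0.05 in edgeR. NR3C1, the glucocorticoid receptor, stood at 50.2 and 49.2 CPM with GSK591, 69.9 and 65.5 with MS023 and 47.8 and 49.6 in untreated cells (log2 fold change -0.45, SE 0.11, adjusted p = 0.00472). The MS023 libraries were the high ones, and the call was lost without replicate 2 of GSK591 or replicate 1 of MS023 (adjusted p = 0.0672 and 0.0905).

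Among regulators of the G1 restriction point, CDKN2C, an inhibitor of CDK4 and CDK6, stood at 11.0 and 11.8 CPM against 18.6 and 21.7 CPM (log2 fold change -0.82, SE 0.174, adjusted p = 8.87e-04). RBL1, the pocket protein p107, stood at 1.39 and 1.07 CPM against 4.04 and 3.84 CPM and 5.78 and 6.45 CPM untreated (log2 fold change -1.65, SE 0.382, adjusted p = 0.00262). CCND3, cyclin D3, stood at 42.9 and 41.1 CPM against 61.9 and 55.8 CPM (log2 fold change -0.49, SE 0.115, adjusted p = 0.0033). With CDKN1A these were the 4 calls among 14 genes, 3 lower and 1 higher. The calls of RBL1 and CCND3 were lost without replicate 2 of GSK591 (adjusted p = 0.0618 and 0.0640), and that of CCND3 also without replicate 1 of MS023 (0.0934).

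The next question was whether the same differences appeared in libraries that the 7-day comparison does not use. Of the 2149 genes called at 7 days, 1369 were also called with Dex for 15 min after the 7 days (63.7% of the 7-day genes and 38.2% of the 3581 called there), and all 1369 had the same direction. With Dex for 3 h 1068 were shared (49.7% and 41.9%), 1066 of them in the same direction. With 4 days of inhibitor 647 were shared (30.1% and 46.8%) and with 2 days 301 (14.0% and 48.8%), of which 645 and 295 had the same direction. The shares of all genes called were 15.6%, 11.1%, 6.03% and 2.69% in these 4 comparisons. Pearson's r of the log2 fold changes with those at 7 days, across 11033 genes, was 0.77, 0.69, 0.61 and 0.41 in the same order. The genes higher at 7 days (median 0.88) had medians of 0.74, 0.65, 0.38 and 0.23, and the genes lower (median -0.79) had -0.66, -0.52, -0.41 and -0.27.

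Tested directly, the difference between inhibitors had changed from 2 to 7 days for 232 genes (1.01% of 22919). It had become more positive for 161 (0.702%) and more negative for 71 (0.31%). From 4 to 7 days it had changed for 64 genes (0.279%), more positive for 49 (0.214%) and more negative for 15 (0.0654%). A change in this difference does not show which inhibitor's levels moved. The heat map of list medians shows which groups were involved. Interferon-stimulated genes had a median of -0.53 at 2 days (8 of 39 lower) and -1.16 at 4 days (24 lower). Of all genes 1.58% and 3.52% were lower then. At 7 days the median was -0.14 (2 lower, OAS3 and PLSCR1). Those 2 are 5.13% of the list, near the 4.47% of all genes lower at 7 days. The change from 4 to 7 days was called for 8 of the 39 genes, all 8 toward a more positive log2 fold change. OAS3, an antiviral oligoadenylate synthetase, was at 8.37 and 8.71 CPM against 14.6 and 10.8 CPM at 7 days (log2 fold change -0.57), where the log2 fold change at 4 days was -1.81. The OAS3 and PLSCR1 calls at 7 days were lost under DESeq2 and without any of 3 of the 4 libraries. Of the genes with the largest rises, FOXQ1, XDH and PDLIM7 had log2 fold changes at 2 days of -0.24, -0.04 and -0.19, and each changed by 7 days in the test of the difference. COL5A1, CCN1 and CXCL1 were not called at 2 or 4 days and differed at 7 days from both. INHBB, GREM1 and CPM by contrast were called at 2 days (-1.47, -1.83 and 1.94), and their change to 7 days did not pass the threshold.

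**Figure D5:**
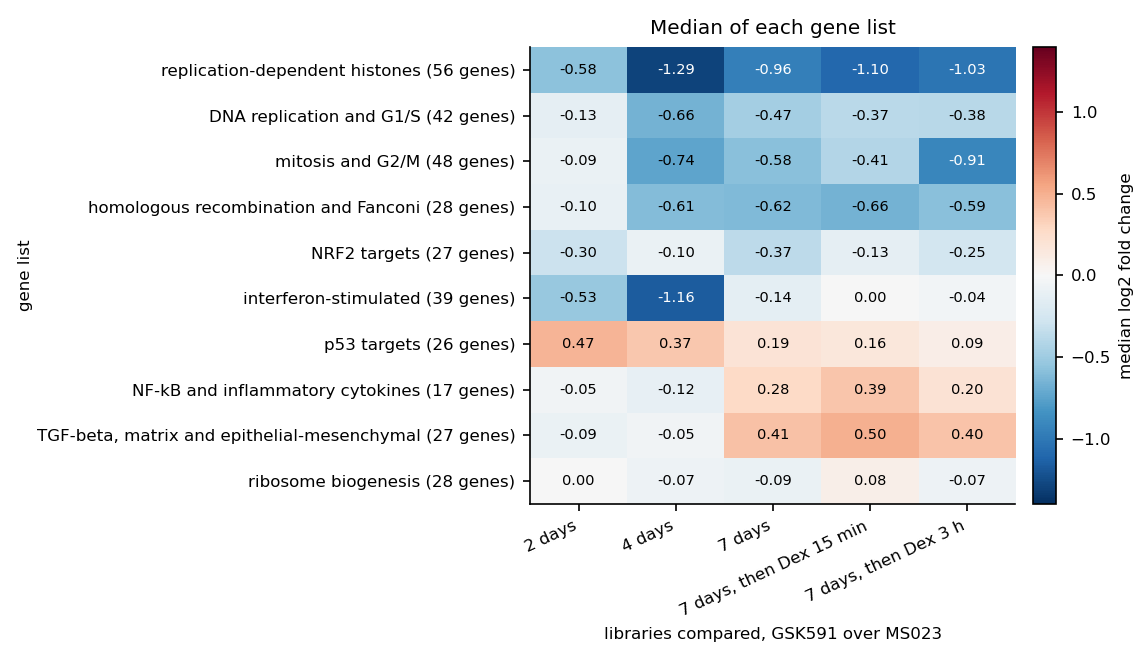
Median log2 fold change, GSK591 over MS023, of 10 gene lists (rows, number of genes tested in brackets) in 5 comparisons that share no library (columns), coloured from blue (lower with GSK591) to red (higher). Histones are blue throughout from -0.58 to -1.29, interferon-stimulated genes are at -0.53 and -1.16 at 2 and 4 days and at -0.14 at 7 days, and the matrix list turns from -0.05 at 4 days to 0.41 at 7 days.

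The authors' deposited table for each inhibitor against untreated cells gives a second set of values, and both tables share the untreated libraries. There ABCA1 is listed at 1.98 with GSK591 and -0.26 with MS023 on the log2 scale, and C3 at 2.63 and -0.02. GREM1 is listed by the authors' deposited table at -0.57 and 1.54, and NR0B1 at -0.25 and 1.46. COL5A1 is at 0.20 and -1.20 and PDLIM7 at 0.55 and -1.36 in the authors' deposited table. AURKB is at -2.40 and -0.75 and NUPR1 at 1.23 and 3.03 in the authors' deposited table. Of the named genes called here, 48 are matched in those tables. The inhibitor with the higher value is the same as in the counts for 47 of them, and the exception is CCNB2. The tables were made from the same libraries, so this compares 2 analyses and not independent samples.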

How the data were processed

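PRO-seq libraries of A549 cells were grouped by their labels. The authors deposited whole-number gene counts, made with featureCounts 2.0.1 on hg38 per the submitters' processing notes. The aligner, the use of strand and the feature type are not given in the sources used here. The authors also deposited comparison tables, of which 2 were used. Per the file headers they hold a mean signal over normalised counts (baseMean), log2 fold changes with standard errors, and p-values with adjusted p-values. Across 11595 protein-coding genes the log2 mean changed with log2 exonic and intronic length with slopes of 0.71 and -0.23 in the counts and 0.63 and 0.25 in the authors' mean, so the tables may rest on another counting. Gene types and coordinates are from GENCODE 29, which matched all 58780 identifiers, and promoter windows are from RefSeq.

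Counts were tested with edgeR 4.0.16 (R 4.3.3, limma 3.58.1): TMM scaling, filterByExpr (minimum count 10, minimum total 15), robust quasi-likelihood fit of all 30 libraries in 15 groups with 15 residual degrees of freedom, and Benjamini-Hochberg adjustment over 22919 genes. A gene is called at an adjusted p below 0.05. The common biological coefficient of variation was 10.6%. Standard errors were obtained by dividing each log2 fold change by the root of its F. The procedure was tested on simulated data. Lists are given by counts and medians, without a test. Tables and windows were handled in Python 3.11.15.

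The comparison, the lists and the members were chosen with earlier results of these data known. The genes named are the 10 protein-coding genes and 3 others with the largest log2 fold change in each direction among those called, without overlap and averaging 5 CPM or more, up to 3 called members of smallest p per list and direction, and PRMT5, PRMT1, SNRPB and NR3C1. Other genes named, the snRNA and mitochondrial groups, and the lists of histone variants and of histone transcription and 3′ end factors were chosen after their values were seen. Alternatives were other scalings, no filter, DESeq2 1.42.0, a fit restricted to the libraries compared, a block for the replicate number, a processed-pseudogene covariate, leaving out mitochondrial and ribosomal RNA genes, and leaving out each library. Some members of the lists are not reported here.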

Additional observations from a re-analysis of the deposited data

Results flagged for a closer look

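For 21 named genes the difference between the inhibitors changed from 2 to 7 days, and for 6 from 4 to 7 days, by edgeR's test of the difference itself with Benjamini-Hochberg adjustment over all genes. The values that follow are the log2 fold change at 7 days minus that at the earlier time. They do not show which inhibitor's levels moved. Each time has its own libraries, so a change between times cannot be told apart from a change between the library sets.

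Toward a more positive log2 fold change from 2 to 7 days, the change was 2.13 for PSG4, 2.55 for XDH and 1.81 for STC1. It was 2.68 for FOXQ1, 1.89 for ABCA1, 1.61 for FBN2, 2.21 for PDLIM7 and 1.82 for AC145098.2. It was 1.88 for C3, 1.08 for COL5A1, 0.73 for CCN1 and 1.75 for CXCL1. Adjusted p ran from 8.12e-08 for FOXQ1 and PDLIM7 to 0.0279 for PSG4. At 2 days none of these 12 genes was called, and their log2 fold changes then ran from -0.37 for CXCL1 to 0.84 for PSG4.

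Toward a more negative log2 fold change from 2 to 7 days, the change was -0.94 for AURKB, -1.05 for H3C15 and -1.05 for H3C14. It was -0.79 for HIST1H3B, -0.69 for RRM2, -1.19 for E2F2, -1.87 for CKAP2L, -0.92 for NUPR1 and -0.82 for OSGIN1. AURKB, NUPR1 and the 3 histone genes were already lower with GSK591 at 2 days, and RRM2, E2F2, CKAP2L and OSGIN1 were not called then.

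From 4 to 7 days the change was 1.23 for FBN2, 1.58 for PDLIM7, 1.07 for COL5A1, 0.71 for CCN1 and 1.24 for CXCL1. For OAS3 it was 1.24, from a log2 fold change of -1.81 at 4 days to -0.57 at 7 days.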

How the results depend on the processing

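Scaling by total counts, of which mitochondrial genes take a larger share with GSK591, moved the median of all genes at 7 days from -0.03 to -1.07 and gave 16029 called genes, 97 of them higher, in place of 2149. It gave 1108 for 617 at 2 days, 13002 for 3581 and 12750 for 2550 with Dex for 15 min and 3 h, and 1590 for 232 and 2010 for 64 for the changes from 2 and from 4 to 7 days. Relative to that median histone genes were at -0.94. All 26 reversals of called or fixed genes occurred in this scaling. On the log2 scale they were PRMT5 -0.99, SNRPB -1.04, CCNB2 -0.11, CDKN1A -0.25, MDM2 -0.54, PHLDA3 -0.50, VLDLR -0.45, CLK3 -0.66, CCN1 -0.43, TAGLN -0.23 and NFKBIZ -0.65 at 7 days. With Dex for 15 min they were SNRPB -0.58, CDKN1A -0.21, MDM2 -0.044, PHLDA3 -0.42, CLK3 -0.57 and NFKBIZ -0.23, and with Dex for 3 h SNRPB -0.70, CDKN1A -0.15, MDM2 -0.28, PHLDA3 -0.52, GDF15 -0.81, CLK3 -0.59, CCN1 -0.41 and CCND3 -0.77. The change of CCN1 from 4 to 7 days became -0.0033. Scaling by nuclear totals moved the higher share of calls at 7 days from 52.3% to 34.3%, and no filter to 42.0%.

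DESeq2 called 1097 genes at 7 days, 305 at 2 days, 695 at 4 days, 1999 and 1308 with Dex for 15 min and 3 h, and 116 and 39 for the changes from 2 and 4 days. A fit of the compared groups alone, which rests on fewer samples, gave 1106 at 2 days, 2402 at 4 days, and 644 and 276 for the changes. The processed-pseudogene share as a covariate gave 945 at 2 days, and 504 and 182 for the changes. The cause of these shifts was not tested. Leaving out 1 library gave 1026 to 1192 genes at 7 days, 223 to 271 at 2 days, 594 to 740 at 4 days, 1420 to 2866 and 1233 to 1526 with Dex, and 116 to 144 and 30 to 49 for the changes, where a lone sample is assumed to vary like the other groups.

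The replicate number as a block gave 2230 genes at 7 days, 2140 of them shared, and changed no call of the 71 named genes. Same-numbered libraries did not deviate together, with r of 0.05 at 7 days and -0.20 with Dex for 3 h, so they share only a number. Of 918 values of named genes at 7 days under the alternatives, 828 kept direction and call, 78 lost the call, 1 gained it and 11 reversed. Nuclear counts of 1914570 in the shallower GSK591 library limit what can be called among genes of a few CPM.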
